A study of Mus musculus with 14 samples.

Results

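DNA replication and mitosis genes are described here in 14 mouse mammary tumors: 40 genes chosen by symbol, of the 17232 genes that were counted in both tables of the study. The rule is a list of names, made with earlier results of these data known, and all 40 were found in the table of 17702 genes for the *Lats2* experiment and in the table of 17763 genes for the *Lats1* experiment. Textbook knowledge of when each product acts placed 17 of them in S phase, the stage in which DNA is copied, and 23 in mitosis and the G2 stage before it. The list holds *Ccne1*, *Ccne2*, *Cdc6*, *Cdt1*, *Mcm2* to *Mcm7*, *Pcna*, *Rrm1*, *Rrm2*, *Tyms*, *E2f1*, *E2f2* and *Mybl2* as S-phase genes. The mitotic genes are *Mki67*, *Top2a*, *Ccna2*, *Ccnb1*, *Ccnb2*, *Cdk1*, *Cdc20*, *Aurka*, *Aurkb*, *Bub1*, *Bub1b*, *Plk1*, *Ttk*, *Cenpa*, *Cenpe*, *Cenpf*, *Kif11*, *Kif20a*, *Kif23*, *Birc5*, *Foxm1*, *Tpx2* and *Ube2c*.

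The tumors came from MMTV-PyMT mice, in which the mammary-active MMTV promoter drives the polyoma middle T oncogene. In *Lats2*-CKO PyMT mice, MMTV-Cre removed exon 5 of *Lats2* from mammary epithelium, and in *Lats1*-CKO PyMT mice it removed exon 4 of *Lats1*, so that stroma and any epithelial cell without Cre activity kept the gene. The *Lats2* experiment held 4 *Lats2*-CKO PyMT tumors (1, 7, 8 and 16) and 3 tumors of WT-PyMT littermates (14, 2 and 1). The *Lats1* experiment held 4 *Lats1*-CKO PyMT tumors (27, 18, 14 and 21) and 3 of their own WT-PyMT littermates (17, 20 and 22). The study states for the sequenced tumors of the *Lats2* experiment that each came from a different mouse, and does not state it for those of the *Lats1* experiment. The labels name each experiment as a batch, give each tumor a histology (6 adenoma/MIN, 7 carcinoma, 1 adenosquamous carcinoma) and name 2 RNA isolation kits without saying which tumor had which. The labels give no age, and mice of both cohorts were examined at 3 months.

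A cell that divides first loads the MCM helicase onto its DNA, then copies the DNA under the control of cyclin E and E2F factors, and later builds a spindle under the control of cyclin B with CDK1, the Aurora kinases and PLK1. The genes for these products are repressed in resting cells by complexes of the DREAM and RB families, S-phase genes mainly through E2F sites and G2/M genes mainly through CHR elements. They are the usual transcript measure of proliferation in tumors, and LATS1 and LATS2 are kinases of the Hippo pathway that restrain YAP and TAZ, coactivators of growth genes.

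The libraries held 18593864 to 31909282 counts each, and the lowest count of any member in any library was 71 (*Ccne2*). Levels are given as CPM, counts scaled to library size with TMM factors over all 14 libraries, which is not corrected for transcript length and so is compared between tumors and not between genes. *Lats1* stood at 32.1 to 37.3 CPM in *Lats1*-CKO PyMT tumors against 102 to 124 in their controls. *Lats2* stood at 33.7, 8.49, 16.4 and 11.0 CPM in *Lats2*-CKO PyMT tumors 1, 7, 16 and 8 against 55.9, 29.8 and 23.8 in WT-PyMT tumors 14, 2 and 1, so that the library labelled *Lats2*-CKO 1 lay within its controls. *Epcam*, a defining marker of epithelium, was at 242 CPM in WT-PyMT tumor 14 and at 664 to 1411 CPM in the other 13. In RNA from whole tumors, fewer dividing cells and less of a transcript per dividing cell cannot be told apart.

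Promoters of the members are shown first, since S-phase and mitotic genes are known to be controlled through different elements and the levels of both classes are compared. RefSeq windows of GRCm38.p6 from 250 bases before to 50 bases after the gene start were found for 33 of the 40 members (15 S-phase and 18 mitotic) and for 12840 of the genes in both tables. They were searched on both strands for the CHR element TTTGAA, the E2F sites TTCCCGC and TTGGCGC, and the CCAAT box bound by NF-Y. An E2F and a CCAAT match overlapped in 2 members and E2F matches overlapped each other in 1 member, *Mcm3*. Overlapping matches were counted separately. The windows below are those of the S-phase member and of the mitotic member with the most matches, and of *Mki67*, which encodes the proliferation antigen Ki-67. Each reads 5′ to 3′ in the direction of its gene, all 3 genes lie on the minus strand, and capitals mark matches to any of the motifs.
*Mcm3* (chr1:20820263-20820562): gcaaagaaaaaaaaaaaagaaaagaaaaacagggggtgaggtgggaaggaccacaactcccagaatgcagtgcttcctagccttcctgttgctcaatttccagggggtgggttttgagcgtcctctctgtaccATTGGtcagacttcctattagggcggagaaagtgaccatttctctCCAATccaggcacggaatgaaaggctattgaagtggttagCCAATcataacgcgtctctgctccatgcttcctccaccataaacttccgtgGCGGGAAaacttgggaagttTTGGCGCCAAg
*Top2a* (chr11:99024140-99024439): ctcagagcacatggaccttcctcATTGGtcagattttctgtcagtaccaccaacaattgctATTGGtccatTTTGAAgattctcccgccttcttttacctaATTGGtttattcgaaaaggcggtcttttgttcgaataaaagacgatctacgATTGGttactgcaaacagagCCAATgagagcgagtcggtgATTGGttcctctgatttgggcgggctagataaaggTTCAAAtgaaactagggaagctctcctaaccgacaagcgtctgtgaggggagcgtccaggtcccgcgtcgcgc
*Mki67* (chr7:135716330-135716629): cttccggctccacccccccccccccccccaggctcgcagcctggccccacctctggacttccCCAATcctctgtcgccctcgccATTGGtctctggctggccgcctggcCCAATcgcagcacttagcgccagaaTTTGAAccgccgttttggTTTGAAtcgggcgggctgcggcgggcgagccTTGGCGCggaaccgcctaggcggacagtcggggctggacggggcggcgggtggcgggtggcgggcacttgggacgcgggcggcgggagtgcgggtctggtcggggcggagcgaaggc
The *Mcm3* window holds 3 E2F matches and 3 CCAAT boxes and no CHR element. Its E2F matches at positions 40 and 43 after the gene start overlap on opposite strands and share the last stretch of capitals. The *Top2a* window holds 2 CHR elements and 6 CCAAT boxes and no E2F match. *Mki67* has all of them, with 2 CHR elements, 1 E2F match and 3 CCAAT boxes.

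A CHR element lay in 14 of 18 mitotic windows (77.8%) and in 1 of 15 S-phase windows (6.67%, that of *Mcm2*), where 12.7% of all windows hold one. E2F matches lay in 8 of 15 S-phase windows (53.3%), in 3 of 18 mitotic windows (16.7%) and in 11.2% of all windows. CCAAT boxes were found in 17 mitotic windows (94.4%), in 9 S-phase windows (60%) and in 38.1% of all windows. Among mitotic members the windows of *Ccnb1*, *Bub1*, *Cenpe* and *Birc5* held no CHR element, and that of *Birc5* held none of the motifs. Among S-phase members the windows of *Ccne1*, *Tyms*, *E2f1* and *Mybl2* held none. These are matches of letters in one window per gene, and binding was not measured.

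Across the 14 tumors, mitotic genes varied more than S-phase genes. The highest tumor exceeded the lowest by 2.24-fold (*Mcm6*) to 6.20-fold (*Ccne1*) for S-phase members, with a median of 3.08-fold, and by 3.46-fold (*Foxm1*) to 6.46-fold (*Bub1*) for mitotic members, with a median of 4.62-fold. The lowest tumors were the same few for nearly the whole list. *Lats2*-CKO tumor 16, a carcinoma, was the lowest of the 14 for 14 S-phase and 14 mitotic members, and WT-PyMT tumor 14, an adenoma, was the lowest for the remaining 3 and 9. At the other end *Lats1*-CKO tumor 21, the adenosquamous carcinoma, was the highest for 13 S-phase and 16 mitotic members.

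The mean log2 CPM of the 23 mitotic genes was 4.53 in WT-PyMT tumor 14 and 4.46 in *Lats2*-CKO tumor 16, and 5.21 to 6.59 in the other 12. For the 17 S-phase genes, *Lats2*-CKO tumor 16 was again lowest at 4.55, but WT-PyMT tumor 14 at 5.11 stood above WT-PyMT tumor 1 at 4.88. The mitotic mean minus the S-phase mean was -0.58 in WT-PyMT tumor 14 and -0.09 in *Lats2*-CKO tumor 16, and lay between 0.30 and 0.58 in the other 12 tumors. So this difference was lower in 2 tumors, 1 from each group of the *Lats2* experiment, than in the rest. In *Lats2*-CKO tumor 16 both means were the lowest of the 14, whereas in WT-PyMT tumor 14 the S-phase mean was not.

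**Figure D1:**
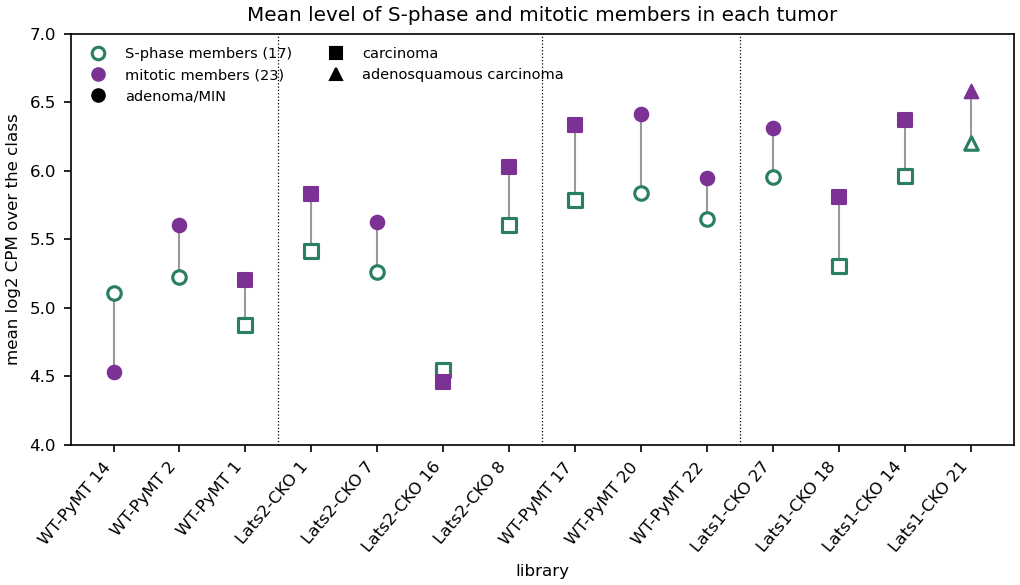
Mean log2 CPM (y axis) of the 17 S-phase members (open green) and the 23 mitotic members (filled purple) in each of 14 libraries (x axis), with circles for adenoma/MIN, squares for carcinoma and a triangle for the adenosquamous carcinoma; dotted lines part the 4 groups. Filled symbols lie above open ones in 12 libraries and below them in WT-PyMT 14 and *Lats2*-CKO 16.

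Those tumors differed in the other cell types they held. In WT-PyMT tumor 14 the mean log2 CPM was 7.84 over the 9 measured T and NK cell markers and 7.14 over 9 B and plasma cell markers, the highest of the 14 libraries, and 6.59 over 8 epithelial markers, the lowest, where the other 13 lay between 7.88 and 8.70. In *Lats2*-CKO tumor 16 the same lists stood at 3.04, 1.04 and 8.43. The other *Lats2*-CKO tumors had 0.51 to 1.68 over T and NK cell markers and -1.71 to -0.90 over B and plasma cell markers. Low mitotic levels thus occurred in a tumor with few epithelial and many lymphocyte transcripts. They also occurred in a tumor whose epithelial list was within the range of the rest and whose lymphocyte lists were the highest of the *Lats2*-CKO group. WT-PyMT tumor 22, next in lymphocyte transcripts with 5.50 and 5.44, had a mitotic mean of 5.95. The other controls of its experiment, WT-PyMT tumors 17 and 20, had 6.34 and 6.42. The mitotic mean minus the S-phase mean was 0.30 in WT-PyMT tumor 22 and 0.55 and 0.58 in WT-PyMT tumors 17 and 20. The part of these cells in the member levels was not tested.

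**Figure D2:**
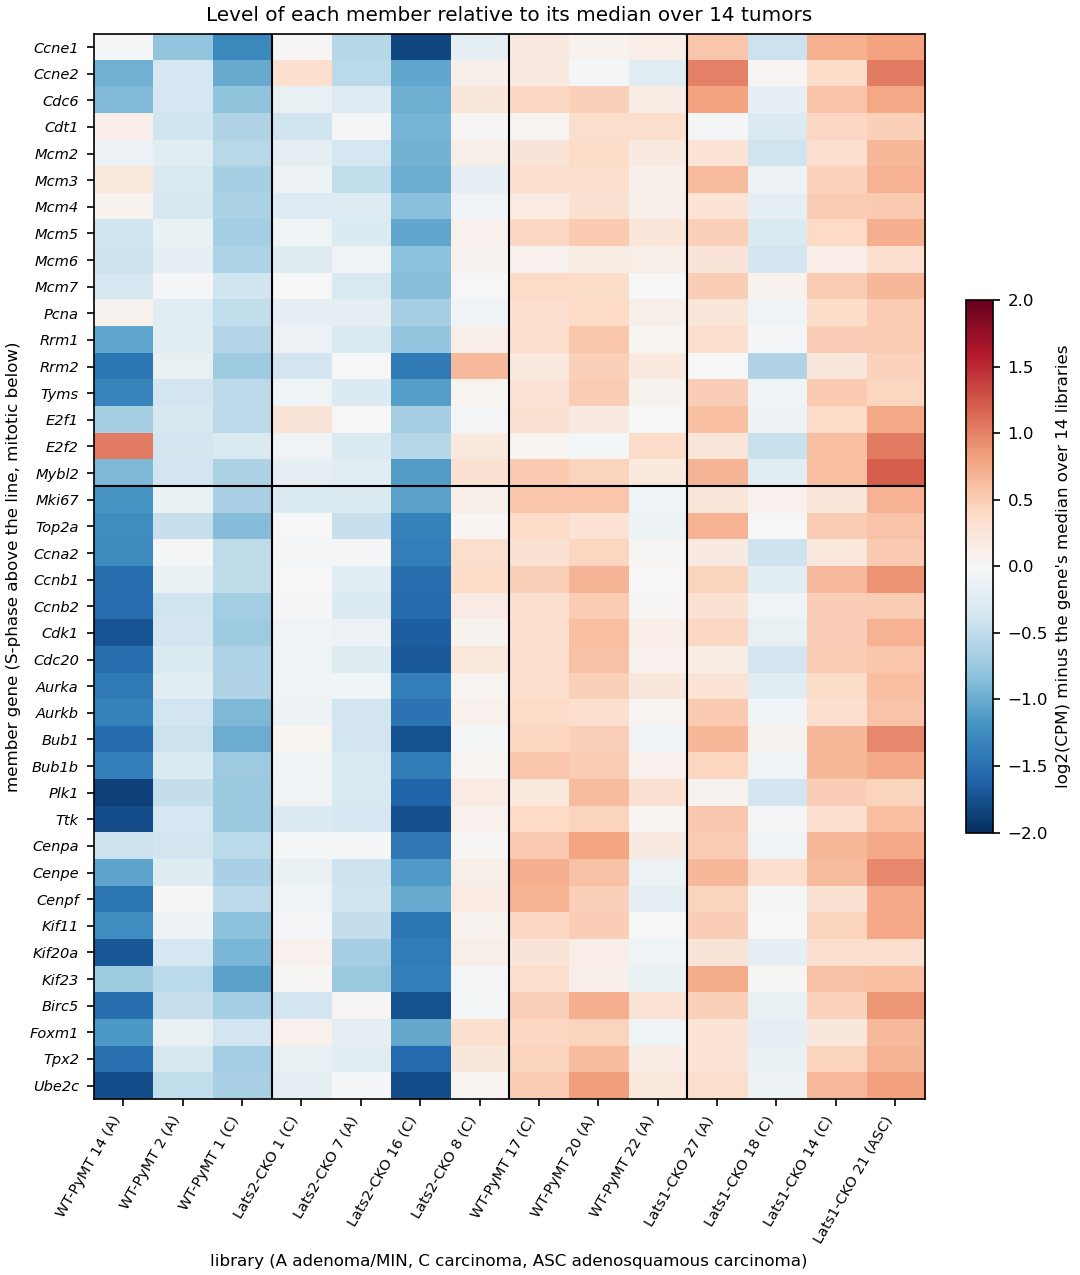
Each row is a member and each column a library, and the color gives log2 CPM minus the member's median over the 14 libraries, from blue (lower) to red (higher). The columns WT-PyMT 14 and *Lats2*-CKO 16 are blue over the mitotic rows, and *E2f2* is red in WT-PyMT 14. Most rows are red in WT-PyMT 17 and 20 and in *Lats1*-CKO 27, 14 and 21. Colors are paler in WT-PyMT 22, and *Lats1*-CKO 18 is blue over most S-phase rows.

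Licensing genes load the replicative helicase at origins: *Cdc6* and *Cdt1* encode the loaders and *Mcm2* to *Mcm7* the 6 subunits of the helicase. *Mcm3* measured 93.3, 66.2 and 50.9 CPM in WT-PyMT tumors 14, 2 and 1 and 74.9, 57.2, 40.4 and 71.7 CPM in *Lats2*-CKO tumors 1, 7, 16 and 8. In the *Lats1* experiment it measured 102, 102 and 86.1 CPM in WT-PyMT tumors 17, 20 and 22 and 124, 75.5, 110.4 and 130.1 CPM in *Lats1*-CKO tumors 27, 18, 14 and 21. WT-PyMT tumor 14, low for mitotic genes, was thus the highest of the 7 tumors of its experiment for *Mcm3*, and genotypes overlapped in both experiments. *Cdc6* behaved differently, with 9.08, 13.2 and 9.60 CPM in WT-PyMT tumors 14, 2 and 1 against 15.1, 14.0, 8.48 and 19.4 in *Lats2*-CKO tumors. The 8 licensing genes ranged in log2 fold change from -0.19 (*Mcm3*) to 0.43 (*Cdc6*) in *Lats2*-CKO PyMT and from -0.11 (*Cdt1*) to 0.17 (*Cdc6*) in *Lats1*-CKO PyMT tumors.

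*Pcna* encodes the sliding clamp of the DNA polymerases, *Rrm1* and *Rrm2* the subunits of ribonucleotide reductase and *Tyms* thymidylate synthase, which supply deoxynucleotides. The *Rrm2* level was 44.7, 110.4 and 74.9 CPM in WT-PyMT tumors 14, 2 and 1 and 94.0, 121, 45.8 and 192 CPM in *Lats2*-CKO tumors 1, 7, 16 and 8. It was 140.4, 170.5 and 140.1 CPM in WT-PyMT tumors 17, 20 and 22 and 123, 80.3, 143 and 169 CPM in *Lats1*-CKO tumors 27, 18, 14 and 21. *Lats2*-CKO tumor 8 had the highest level of the 14 tumors for this gene, and WT-PyMT tumor 14 and *Lats2*-CKO tumor 16 the lowest. The fold changes were 0.57 on the log2 scale in *Lats2*-CKO PyMT (95% interval -0.60 to 1.74) and -0.25 in *Lats1*-CKO PyMT tumors (-0.80 to 0.30), neither past the test. WT-PyMT tumor 14 had 0.362 of the median level of the other 13 tumors for *Rrm2*, 0.381 for *Tyms* and 0.474 for *Rrm1*, but 1.10 for *Pcna*.

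Cyclins E1 and E2, encoded by *Ccne1* and *Ccne2*, activate CDK2 at the entry into S phase. *Ccne1* was measured at 19.2, 11.3 and 8.03 CPM in WT-PyMT tumors 14, 2 and 1 and at 19.96, 13.2, 5.52 and 17.2 CPM in *Lats2*-CKO tumors 1, 7, 16 and 8. *Ccne2* was the lowest-counted member, with 6.79, 5.93 and 5.19 CPM in WT-PyMT tumors 17, 20 and 22 and 12.1, 6.10, 7.74 and 12.2 CPM in *Lats1*-CKO tumors 27, 18, 14 and 21. *Lats1*-CKO tumors 27 and 21 stood above the rest for *Ccne2*, while tumor 18 lay within the controls. Its log2 fold change in *Lats1*-CKO PyMT was 0.65 (standard error 0.31, 95% interval -0.06 to 1.37), with the smallest p of the 40 members in that comparison (unadjusted p = 0.0688 and adjusted p = 0.473, edgeR).

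E2F1 and E2F2 are activators of S-phase genes, and *Mybl2* encodes B-MYB, itself an E2F target, which acts with the MuvB complex at promoters of mitotic genes. *E2f2* was the member that stood highest in WT-PyMT tumor 14 relative to the other tumors. Smaller excesses were seen for *Mcm3* (1.24 times the median of the others), *Mcm4* (1.11), *Cdt1* (1.105) and *Pcna* (1.10). *E2f2* was at 38.7, 14.6 and 15.5 CPM in WT-PyMT tumors 14, 2 and 1. In *Lats2*-CKO tumors 1, 7, 16 and 8 it was at 18.0, 15.4, 12.7 and 21.7 CPM. For *E2f2*, WT-PyMT tumor 14 was at 2.11 times the median of the other tumors, the next to highest of the 14. For *E2f1* and *Mybl2* it was among the 2 lowest tumors. *E2f1* was at 14.1, 17.9 and 15.4 CPM in those WT-PyMT tumors and at 26.6, 22.5, 14.0 and 21.9 CPM in the *Lats2*-CKO tumors, of which tumor 16 lay just below the controls and the other 3 above them. *E2f1* had the smallest p of the 40 members in the *Lats2*-CKO comparison (log2 fold change 0.43, standard error 0.26, 95% interval -0.18 to 1.05, unadjusted p = 0.139, adjusted p = 0.721, edgeR).

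*Mki67* encodes a chromosome surface protein that resting cells lack, and *Top2a* the topoisomerase that untangles sister chromatids. *Mki67* was measured at 153, 315 and 219.9 CPM in WT-PyMT tumors 14, 2 and 1 and at 286, 284, 164 and 375 CPM in *Lats2*-CKO tumors 1, 7, 16 and 8. In the other experiment WT-PyMT tumors 17, 20 and 22 had 505, 507 and 326 CPM and *Lats1*-CKO tumors 27, 18, 14 and 21 had 407, 367, 408 and 559.6 CPM. CKO and control tumors overlapped in both experiments, and all 7 tumors of the *Lats1* experiment stood above all WT-PyMT tumors of the *Lats2* experiment. As group means, *Mki67* was 229 ± 81.4 CPM (SD, n = 3) and 277 ± 86.5 (n = 4) in controls and *Lats2*-CKO PyMT tumors of one experiment. It was 446 ± 104 (n = 3) and 436 ± 84.8 CPM (n = 4) in WT-PyMT and *Lats1*-CKO PyMT tumors of the other.

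CDK1 and its partners, cyclin A2 and cyclins B1 and B2, drive entry into mitosis. *Ccnb1* stood at 8.39, 21.6 and 16.7 CPM in WT-PyMT tumors 14, 2 and 1 and at 24.0, 20.7, 8.40 and 30.6 CPM in *Lats2*-CKO tumors 1, 7, 16 and 8. WT-PyMT tumor 14 and *Lats2*-CKO tumor 16 were nearly equal and the lowest of the 14, tumor 14 at 0.350 of the other tumors' median, and the genotypes overlapped. *Cdk1*, *Ccna2* and *Ccnb2* had log2 fold changes of 0.54, 0.37 and 0.51 in *Lats2*-CKO PyMT tumors and of -0.0006, -0.12 and 0.0045 in *Lats1*-CKO PyMT tumors. *Foxm1*, which encodes the transcription factor of the G2/M genes, had 0.39 and -0.03.

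PLK1 and the Aurora kinases A and B run spindle assembly and chromosome segregation, TPX2 activates Aurora A, and survivin, encoded by *Birc5*, belongs to the complex of Aurora B. *Plk1* was measured at 14.0, 36.3 and 30.4 CPM in WT-PyMT tumors 14, 2 and 1 and at 48.0, 41.0, 16.6 and 56.6 CPM in *Lats2*-CKO tumors 1, 7, 16 and 8. In the *Lats1* experiment its level was 58.4, 78.2 and 62.7 CPM in WT-PyMT tumors 17, 20 and 22 and 53.4, 39.1, 71.2 and 68.9 CPM in *Lats1*-CKO tumors 27, 18, 14 and 21. *Plk1* had the highest log2 fold change of the 40 members in *Lats2*-CKO PyMT, 0.60, and a negative one in *Lats1*-CKO PyMT, -0.22, and the difference between both changes was -0.79 (95% interval -1.99 to 0.42, unadjusted p = 0.181, edgeR). *Aurka*, *Aurkb*, *Tpx2* and *Birc5* had log2 fold changes of 0.41 to 0.48 in *Lats2*-CKO PyMT and of -0.10 to 0.07 in *Lats1*-CKO PyMT tumors.

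*Bub1*, *Bub1b* and *Ttk* encode kinases of the spindle checkpoint, which holds cells before anaphase until every chromosome is attached, while *Cdc20* and *Ube2c* encode the activator and the ubiquitin-conjugating enzyme of the anaphase-promoting complex that ends this hold. *Ube2c* was at 17.3, 41.9 and 37.8 CPM in WT-PyMT tumors 14, 2 and 1 and at 52.2, 57.7, 17.2 and 60.8 CPM in *Lats2*-CKO tumors 1, 7, 16 and 8. Again tumors 14 and 16 were alike and low, and the other *Lats2*-CKO tumors lay above the other controls for *Ube2c*. The 5 genes had log2 fold changes of 0.41 (*Bub1b*) to 0.54 (*Ube2c*) in *Lats2*-CKO PyMT and of -0.12 (*Cdc20*) to 0.29 (*Bub1*) in *Lats1*-CKO PyMT tumors.

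Centromere proteins A, E and F mark the centromere, move chromosomes as a kinesin and sit at the kinetochore. The kinesins encoded by *Kif11*, *Kif20a* and *Kif23* separate the spindle poles and build the midzone for cytokinesis. *Cenpa* was at 27.9, 29.3 and 25.8 CPM in WT-PyMT tumors 14, 2 and 1 and at 37.0, 36.5, 13.9 and 38.2 CPM in *Lats2*-CKO tumors 1, 7, 16 and 8. It was the mitotic gene least lowered in WT-PyMT tumor 14, at 0.730 of the median of the other tumors, while *Plk1* was lowest there at 0.261. *Kif23* stood at 44.4, 37.4 and 31.5 CPM in WT-PyMT tumors 17, 20 and 22 and at 58.7, 35.4, 52.3 and 52.9 CPM in *Lats1*-CKO tumors 27, 18, 14 and 21, of which tumor 18 alone lay within the controls. This gave *Kif23* the highest mitotic log2 fold change in *Lats1*-CKO PyMT tumors (log2 fold change 0.37, standard error 0.19, 95% interval -0.07 to 0.82, unadjusted p = 0.0894, adjusted p = 0.501, edgeR).

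**Figure D3:**
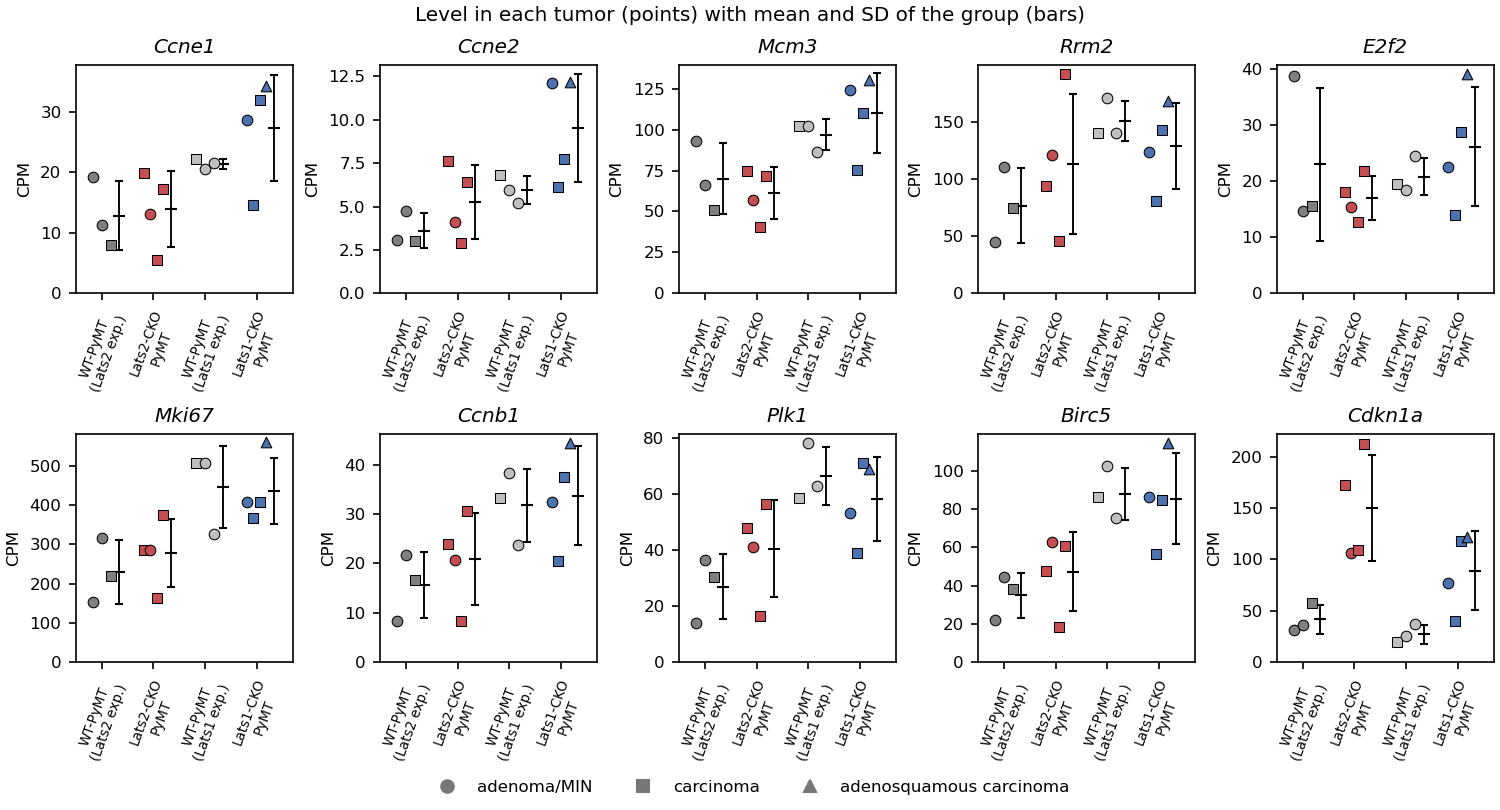
CPM of 5 S-phase members (*Ccne1*, *Ccne2*, *Mcm3*, *Rrm2*, *E2f2*), 4 mitotic members (*Mki67*, *Ccnb1*, *Plk1*, *Birc5*) and the inhibitor gene *Cdkn1a* in each tumor of the 4 groups (points; the shape gives the histology), with the mean and SD of each group beside them. For *Cdkn1a* all CKO tumors lie above the WT-PyMT tumors of their experiment, and for the 9 members the genotypes overlap within each experiment.

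The comparison of *Lats2*-CKO PyMT with WT-PyMT tumors asked whether loss of *Lats2* changed proliferation transcripts. No member passed the test, and the median fitted change was larger for mitotic than for S-phase genes, with no test of that difference. The p-values here measure the spread between tumors of different mice. edgeR's quasi-likelihood test with Benjamini-Hochberg adjustment called 0 of 17702 genes (0%). At an unadjusted p under 0.05 it had 1254 genes (7.08%), of which 208 were higher and 1046 were lower (5.91%), and 0 of the 40 members were among them. DESeq2 called 138 genes (0.78%) and 0 members. The log2 fold change was above 0 for 35 of the 40 members, where 49.7% of all genes were above 0. It was above 0 for all 23 mitotic genes, with a median of 0.43 and a range of 0.19 (*Cenpa*) to 0.60 (*Plk1*). The 17 S-phase genes had a median of 0.13 and a range of -0.42 (*E2f2*) to 0.57 (*Rrm2*), and 12 of them were above 0. All members overlapped between the genotypes, where 1.43% of all genes were higher and 2.26% lower without overlap.

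The intervals from these 7 tumors were wide. The 95% interval of the log2 fold change lay below 1 for 10 S-phase genes and for none of the 23 mitotic ones, so that the 7 tumors did not exclude a change of that size for any mitotic gene. The distance between the classes depended on the setting. The S-phase and mitotic medians were 0.31 and 0.39 with the adipocyte marker mean as a covariate and 0.28 and 0.42 with histology as one, and without WT-PyMT tumor 14 and *Lats2*-CKO tumor 1 their order turned, at 0.18 and 0.12. Without WT-PyMT tumor 14 alone the mitotic median was 0.19 and the S-phase median was 0.17, without WT-PyMT tumor 2 the mitotic median was 0.70, and without *Lats2*-CKO tumor 16 it was 0.69 with an S-phase median of 0.32. In the last case *E2f1* (log2 fold change 0.59, unadjusted p = 0.0333), *Top2a* (0.70, unadjusted p = 0.0356) and *Cenpa* (0.44, unadjusted p = 0.0350) came under 0.05 in edgeR, each with an adjusted p of 0.733, where 5.15% of all genes did.

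**Figure D4:**
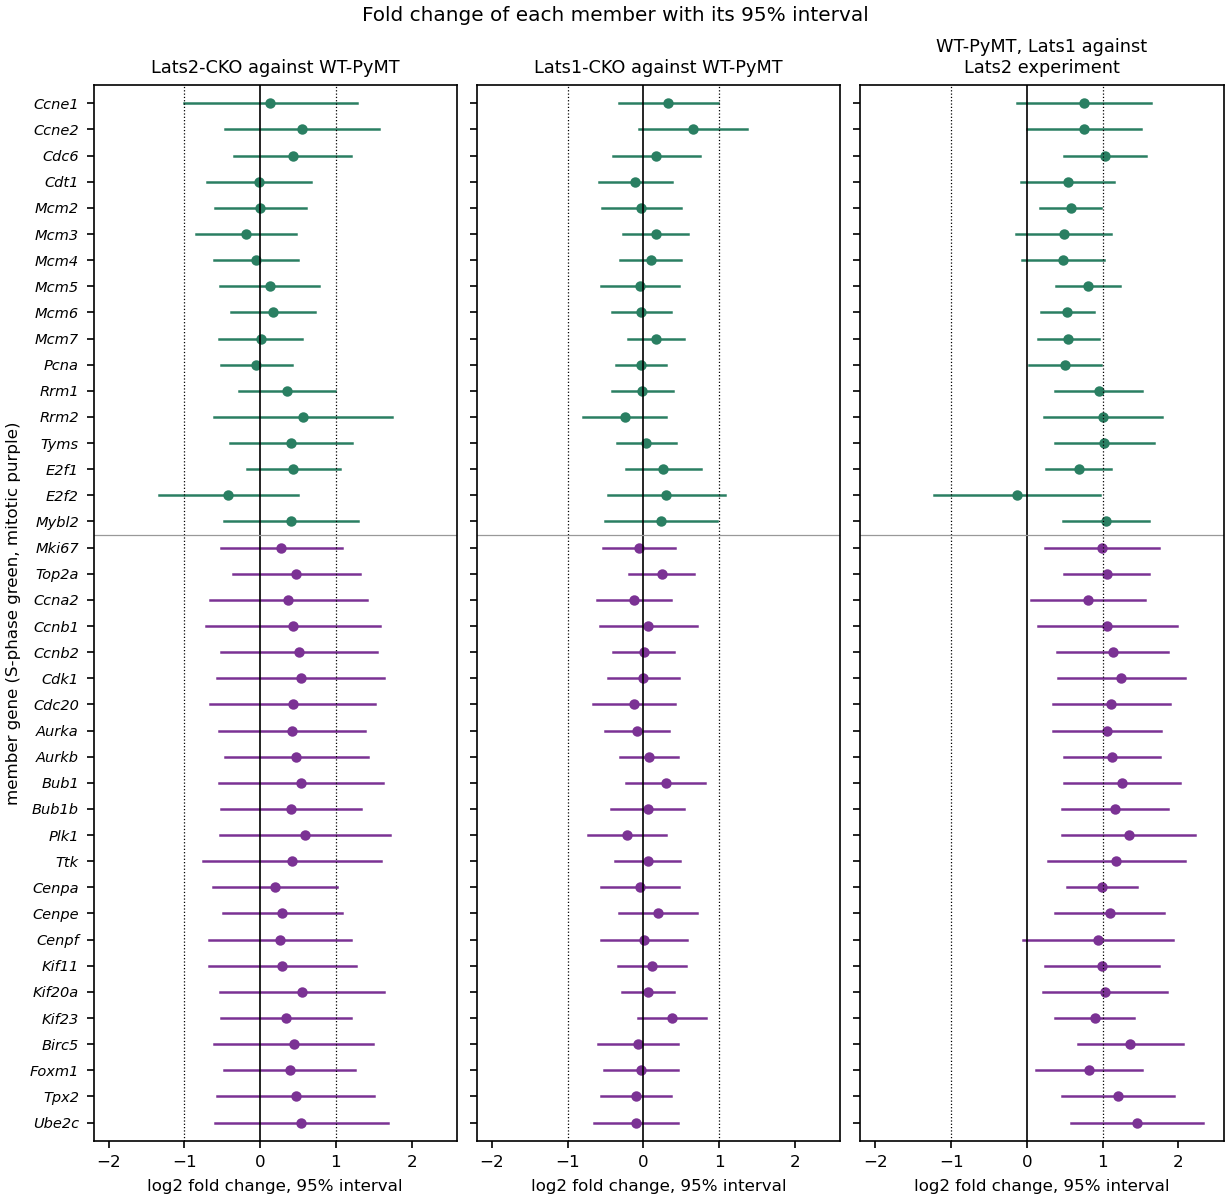
Log2 fold change (x axis) with its 95% interval from edgeR for each member (y axis; S-phase green, mitotic purple) in *Lats2*-CKO against WT-PyMT tumors, in *Lats1*-CKO against WT-PyMT tumors, and in WT-PyMT tumors of the *Lats1* against those of the *Lats2* experiment; dotted lines mark a change of 1 in either direction. All intervals cross 0 in the first and second panels, and 33 of 40 lie above 0 in the third.

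*Lats1*-CKO PyMT tumors were compared with their own littermates in the same way. The medians of the log2 fold change were 0.09 over S-phase and 0.0017 over mitotic members. With the adipocyte marker mean as a covariate they were 0.30 and 0.16, with 16 of 17 and 20 of 23 members above 0, and *Ccne2* (1.137, unadjusted p = 0.0266) and *Kif23* (0.71, unadjusted p = 0.0249) came under 0.05 in edgeR (adjusted p = 0.427 and 0.421), where 9.68% of all genes did. That marker mean was 4.83 to 6.17 in the controls and -1.87 to 4.71 in *Lats1*-CKO PyMT tumors, without overlap. edgeR called 4 of 17763 genes (0.0225%), none of them a member, and 0 of the 40 members were among the 2015 genes with an unadjusted p under 0.05 (11.3%), of which 846 were higher (4.76%) and 1169 were lower (6.58%). DESeq2 called 588 genes (3.31%) and 0 members. Of the 40 members 22 had a log2 fold change above 0, where 49.6% of all genes did, and all 40 overlapped between the genotypes, where 4.88% of all genes were higher and 6.47% lower without overlap. The intervals were narrower than in the *Lats2* experiment, and for 38 of 40 members, all 23 mitotic ones included, they excluded a log2 change of 1 in either direction. The exceptions were *Ccne2* and *E2f2*, whose intervals reached 1.37 and 1.07. Without *Lats1*-CKO tumor 18, the lowest of its group for both classes, 7 members had an unadjusted p under 0.05 (11.4% of all genes in that fit), all higher (*Ccne1*, *Ccne2*, *Mcm3*, *E2f1*, *Top2a*, *Bub1* and *Kif23*), the smallest unadjusted p being 0.00324 for *Ccne1* with a log2 fold change of 0.55 (adjusted p = 0.243, edgeR). Without *Lats1*-CKO tumor 21 the S-phase median was 0.01 and the mitotic median was -0.12. Without it and WT-PyMT tumor 22 they were -0.07 and -0.26, and *Mki67* (-0.37, unadjusted p = 0.0194, adjusted p = 0.332, edgeR) came under 0.05, where 11% of all genes did.

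The difference between the genotype effects, *Lats1*-CKO change minus *Lats2*-CKO change, was fitted over all 14 libraries with each genotype set against its own controls. edgeR called 3 of 17232 genes (0.0174%) and gave 545 an unadjusted p under 0.05 (3.16%; 1.97% above 0 and 1.2% below), among them 0 members, and DESeq2 called 16 genes (0.0929%) and 0 members. The median difference was -0.05 for S-phase and -0.37 for mitotic members, where that of all genes was 0.07. *Kif23* was the only mitotic member with a difference above 0 (0.07). The most negative differences were those of *Plk1* and *Rrm2* (-0.79, 95% interval -2.06 to 0.49). The highest was that of *E2f2* (0.76, -0.42 to 1.95), the member that WT-PyMT tumor 14 held highest relative to the other tumors. Without WT-PyMT tumor 14 the mitotic median was -0.17 and 5 mitotic differences were above 0. Without *Lats2*-CKO tumor 16, *Rrm2* (-1.07, unadjusted p = 0.0482) and *Plk1* (-1.07, unadjusted p = 0.0316) came under 0.05, with an adjusted p of 0.88 in edgeR, where 3.1% of all genes did.

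Histology was the other labelled difference between tumors, and 7 carcinomas were compared with 6 adenoma/MIN tumors with the 4 groups as a term and without the adenosquamous carcinoma. No member passed the test, and no test was made of either class as a whole. edgeR called 0 of 17232 genes (0%) and gave 782 an unadjusted p under 0.05 (4.54%), 275 of them higher (1.6%) and 507 lower (2.94%), with 0 members among them, and DESeq2 called 111 genes (0.644%) and 0 members. *Mki67* had a lowest, median and highest level of 153, 320.2 and 507 CPM in adenoma/MIN tumors and of 164, 367 and 505 CPM in carcinomas, which overlapped over almost their whole range. No member was without overlap, where 0.232% of all genes were higher and 0.174% lower without it. *Mcm6* had the smallest p of the members (log2 fold change -0.26, standard error 0.15, 95% interval -0.60 to 0.08, unadjusted p = 0.124, adjusted p = 0.828, edgeR), with 99.7, 135 and 159 CPM in adenoma/MIN tumors and 75.1, 113 and 146 CPM in carcinomas. All 17 S-phase genes had a log2 fold change below 0, with a median of -0.17, and the 23 mitotic genes had a median of -0.04, where the median of all genes was -0.05 and 42.5% were above 0. For 39 of the 40 members the 95% interval excluded a log2 change of 1 in either direction, the exception being *Ccne1* at -1.06 to 0.54. With the adipocyte marker mean as a covariate 9 of the 17 S-phase genes were above 0 and their median was 0.0029, so their direction depended on that term. Without *Lats2*-CKO tumor 8, *Mcm6* came under an unadjusted p of 0.05, where 4.17% of all genes did.

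Of the comparisons made, the members differed most between the control groups of the experiments. WT-PyMT tumors of the *Lats1* experiment had higher fitted levels of 39 members than WT-PyMT tumors of the *Lats2* experiment, with a larger median for mitotic than for S-phase genes. *Birc5* was at 21.8, 44.7 and 38.4 CPM in WT-PyMT tumors 14, 2 and 1 and at 86.1, 102 and 75.4 CPM in WT-PyMT tumors 17, 20 and 22. *Cdk1* was at 28.2, 72.2 and 57.2 CPM in the former and at 119, 142 and 103 CPM in the latter. *Mcm5* went from 86.3, 103 and 70.9 to 151, 163 and 134 CPM. In each of these genes every tumor of one control group lay above every tumor of the other.

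This comparison was chosen after the values were seen. The labelled batch, the litters and the conditional line went with the experiment, so that their parts cannot be told apart. Its adipocyte list mean was 7.95, 8.51 and 2.76 in WT-PyMT tumors 14, 2 and 1 and 5.04, 4.83 and 6.17 in WT-PyMT tumors 17, 20 and 22. The milk and alveolar list mean was 6.53, 8.75 and 7.42 in the former and 10.76, 9.87 and 9.37 in the latter, without overlap. Their part in the member levels was not tested.

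edgeR called 0 of 17232 genes in it (0%) and gave 1431 an unadjusted p under 0.05 (8.3%), 947 of them higher (5.5%) and 484 lower (2.81%). Of the 40 members 33 were higher at that p, 11 of 17 S-phase and 22 of 23 mitotic genes, and 0 were lower. DESeq2 called 448 genes (2.6%), among them 15 members, all higher. The control groups did not overlap for 36 members, each higher in the *Lats1* experiment, where 9.8% of all genes were higher without overlap. A log2 fold change above 0 was fitted for 39 members, where 45.9% of all genes had one. Its median was 0.68 over S-phase and 1.09 over mitotic members, while that of all genes was -0.05. Mitotic members ranged from 0.81 (*Ccna2*) to 1.45 (*Ube2c*), and the smallest unadjusted p was that of *Cenpa* (log2 fold change 0.99, standard error 0.19, 95% interval 0.53 to 1.46, unadjusted p = 0.00202, adjusted p = 0.517, edgeR). *Cenpf* was the mitotic member not under 0.05 (0.94, unadjusted p = 0.0604, adjusted p = 0.595, edgeR).

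Among S-phase members the fitted changes varied within each role but that of the E cyclins. *Cdc6* (1.03), *Mybl2* (1.04), *Tyms* (1.02), *Rrm2* (1.01) and *Rrm1* (0.95) had log2 fold changes near the mitotic median, each with an unadjusted p under 0.05, while *Mcm2*, *Mcm3*, *Mcm4*, *Mcm6*, *Mcm7*, *Cdt1* and *Pcna* had 0.48 to 0.58. *E2f1* (0.68), *Ccne1* (0.75), *Ccne2* (0.76) and *Mcm5* (0.81) lay between, and no difference between roles was tested. *E2f2* was the only member below 0 (-0.13, 95% interval -1.22 to 0.97), and without WT-PyMT tumor 14 all 40 were above 0. Without 1 tumor at a time, 22 (without WT-PyMT tumor 20, 3.08% of all genes) to 38 members (without WT-PyMT tumor 14, 13.6% of all genes) had an unadjusted p under 0.05, and the mitotic median was 0.90 to 1.33.

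Further genes of replication and mitosis were counted in the same way. Of 56 further replication genes (origin recognition, GINS, polymerases, clamp loading and chromatin assembly), 34 were higher in the WT-PyMT tumors of the *Lats1* than of the *Lats2* experiment at an unadjusted p under 0.05 and 0 lower (5.5% and 2.81% of all genes), with a median of 0.61, and of 76 further mitosis genes 57 were higher and 0 lower, with a median of 0.99. *Fen1*, which encodes the flap endonuclease of lagging-strand synthesis (0.87, unadjusted p = 0.000576), and *Incenp*, a partner of Aurora B (0.98, unadjusted p = 0.000924), had the smallest p of their lists (adjusted p = 0.37 and 0.462, edgeR). Their adjusted p from DESeq2 was 9.36e-07 and 0.000148. In *Lats2*-CKO PyMT tumors 0 of the 56 and 0 of the 76 were under that p (7.08% of all genes), with medians of 0.13 and 0.42. In *Lats1*-CKO PyMT tumors *Orc3*, an origin recognition subunit, was higher (log2 fold change 0.30, standard error 0.09, 95% interval 0.10 to 0.51, unadjusted p = 0.0103) and *Mad1l1*, a checkpoint gene, was lower (-0.27, -0.51 to -0.04, unadjusted p = 0.0265), with adjusted p of 0.32 and 0.407 from edgeR, while the other 55 and 75 genes of the lists were not under 0.05 (11.3% of all genes were). DESeq2 gave *Orc3* an adjusted p of 0.0381 and *Mad1l1* one of 0.224. In carcinomas *Zwint*, a kinetochore gene, was the only gene of either list under 0.05, where 4.54% of all genes were (log2 fold change -0.32, standard error 0.10, 95% interval -0.54 to -0.10, unadjusted p = 0.00843, adjusted p = 0.828, edgeR), and it was lower.

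Of the inhibitors of G1 kinases, *Cdkn1a* and *Cdkn2a* had an unadjusted p under 0.05 in both genotype comparisons, where 7.08% of all genes had one in *Lats2*-CKO PyMT and 11.3% in *Lats1*-CKO PyMT tumors. *Cdkn1a* encodes p21, which blocks cyclin E with CDK2, and it was at 31.5, 35.8 and 57.9 CPM in WT-PyMT tumors 14, 2 and 1 and at 173, 106, 109 and 212 CPM in *Lats2*-CKO tumors 1, 7, 16 and 8. In the *Lats1* experiment *Cdkn1a* was at 19.3, 25.0 and 37.0 CPM in WT-PyMT tumors 17, 20 and 22 and at 77.4, 39.9, 118 and 122 CPM in *Lats1*-CKO tumors 27, 18, 14 and 21. All CKO tumors lay above all controls of their experiment. The log2 fold change was 1.85 in *Lats2*-CKO PyMT (standard error 0.35, unadjusted p = 0.000909) and 1.69 in *Lats1*-CKO PyMT tumors (standard error 0.42, unadjusted p = 0.00467). Neither passed edgeR's adjustment (adjusted p = 0.688 and 0.253), and both passed that of DESeq2 (adjusted p = 0.000565 and 0.00224). The member levels of these tumors overlapped those of their controls. *Lats2*-CKO tumor 8 had the highest *Cdkn1a* level of the 14 and a mitotic mean of 6.03. *Lats2*-CKO tumor 16, at 109 CPM, had the lowest mitotic mean, 4.46. The mitotic means of *Lats2*-CKO tumors 1 and 7 were 5.83 and 5.62. Those of *Lats1*-CKO tumors 27, 18, 14 and 21 were 6.32, 5.81, 6.37 and 6.59. The relation of *Cdkn1a* to the member levels was not tested.

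*Cdkn2a*, which encodes p16 and p19ARF, had log2 fold changes of 3.47 in *Lats2*-CKO PyMT (95% interval 0.22 to 6.73, unadjusted p = 0.0396) and 3.26 in *Lats1*-CKO PyMT tumors (0.90 to 5.61, unadjusted p = 0.0133), with adjusted p of 0.688 and 0.345 from edgeR. DESeq2 gave adjusted p of 0.176 and 0.0103, so that it called *Cdkn2a* in *Lats1*-CKO PyMT tumors alone. It was at 0.782, 0.670 and 1.03 CPM in WT-PyMT tumors 14, 2 and 1 and at 22.6, 0.142, 2.45 and 11.6 CPM in *Lats2*-CKO tumors 1, 7, 16 and 8. In WT-PyMT tumors 17, 20 and 22 *Cdkn2a* was at 0.269, 1.54 and 0.616 CPM, and in *Lats1*-CKO tumors 27, 18, 14 and 21 at 6.41, 2.66, 20.2 and 2.41 CPM. Of the 17 G1 cyclins, kinases and inhibitors measured, *Cdkn1a* and *Cdkn2a* were the only ones under an unadjusted p of 0.05 in either genotype comparison, and of the 15 genes of the E2F and DREAM families 0 were. Between the control groups *Cdkn1b*, which encodes p27, was lower in the *Lats1* experiment (-0.66, unadjusted p = 0.0119, adjusted p = 0.524, edgeR), and *Cdk4*, the kinase of D-type cyclins, was higher (0.62, unadjusted p = 0.0233, adjusted p = 0.55, edgeR). DESeq2 gave adjusted p of 0.0468 for *Cdkn1b* and 0.22 for *Cdk4*.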

How the data were processed

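RNA of 14 tumors was sequenced as single-end reads of 60 bases from 500 ng of total RNA with a polyA kit, and the authors aligned reads with STAR (version not given in the sources used here) to mm10 and counted RefSeq genes. The deposited values used here are raw counts per gene and library in 2 tables, 1 for each experiment, which the study had filtered at a minimum sum of 5 counts. Library totals were 18593864 to 31909282 counts, and no 2 libraries were identical.

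Each genotype was compared with its own littermates by edgeR 4.0.16 (limma 3.58.1, R 4.3.3) with TMM scaling and the quasi-likelihood test over all genes of the table, with Benjamini-Hochberg adjustment and a threshold of 0.05. The difference of both changes and carcinoma against adenoma were fitted on the 17232 genes in both tables with the 4 groups as terms. Levels are CPM from joint TMM scaling, log2 CPM has a prior count of 2, and intervals are 95% intervals of the quasi-likelihood fit. Scripts were tested on simulated data. DESeq2 1.42.0, RLE size factors, a low-count filter, a robust fit, covariates, a fit over all libraries and leaving out each library were alternatives.

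The members and lists were chosen with earlier results of these data known. All 40 members could be named. Of the other lists, the 2 genes of smallest p in each direction with a mean of at least 1 CPM could be, and *Cdkn1a* always. The comparison of the control groups and the settings without pairs of libraries were added after the values were seen. Genes sharing reads with near-identical copies were not separated.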

Additional observations from a re-analysis of the deposited data

Results flagged for a closer look

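Each member, *Cdkn1a* and the mean of each class were checked in each CKO group of 4 tumors. Of these 86 checks, 2 found a tumor set far from the other 3. Chance gives about 1 in 20 if the checks are independent. These checks shared the same tumors, so their count cannot be judged against that rate. *Aurka* was at 16.5 CPM in *Lats2*-CKO tumor 16 and at 40.3 to 44.2 CPM in the other *Lats2*-CKO tumors. *Cenpa* was at 13.9 CPM in the same tumor and at 36.5 to 38.2 CPM in the others.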

How the results depend on the processing

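No member of the 40 was called by edgeR in any comparison under any alternative run. DESeq2 called 15 members between the control groups and none elsewhere. The number of genes called was 138 with DESeq2 and 2 with all 14 libraries in one fit for *Lats2*-CKO PyMT, and 0 to 57 without 1 library (57 without WT-PyMT tumor 1). For *Lats1*-CKO PyMT it was 588 with DESeq2, 7 with a low-count filter, 0 with the adipocyte covariate, 1 with all libraries in one fit and 0 to 19 without 1 library. It was 16 with DESeq2 and 1 to 5 without 1 library for the difference of both changes, 111 with DESeq2 and 0 without 1 library for histology, and 448 with DESeq2 and 0 without 1 library between the control groups.

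Without 1 library, the S-phase and mitotic medians were -0.05 to 0.32 and 0.19 to 0.70 for *Lats2*-CKO PyMT, 0.01 to 0.24 and -0.12 to 0.13 for *Lats1*-CKO PyMT, -0.23 to 0.09 and -0.66 to -0.17 for their difference, -0.25 to -0.07 and -0.12 to 0.10 for histology, and 0.52 to 0.75 and 0.90 to 1.33 between the control groups. The cause of these shifts was not tested. No paired analysis was made, because the labels used do not say which tumors came from the same litter. Each group held 3 or 4 tumors, and every member had at least 71 counts in each library. The parts of counting noise and of the spread between tumors in the width of the intervals were not separated.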
